A study of Homo sapiens with 6 samples.

Results

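A comparison between 2 hairpins against the same transcription factor was made here: ETV1-sh2 against ETV1-sh1, in the human melanoma cell lines A375 and Colo800. Each line was infected with a virus that makes a short hairpin RNA, and RNA was sequenced 4 days later. The comparison rests on 4 of the 6 libraries of the series, 1 for each line and hairpin. The 2 lines served as paired replicates, and the 2 scrambled-hairpin libraries stayed out of the fit and are shown beside it. The series' design text mentions duplicate infections, and the table has a single value per gene for each line and hairpin. How the duplicates went into that value is not stated in the sources used here. The labels carry a conflict that touches every result below. Their treatment field gives DMSO for both ETV1-sh1 libraries, 5 nM trametinib, a MEK inhibitor, for both ETV1-sh2 libraries and 1 uM vemurafenib, a BRAF inhibitor, for both scrambled libraries, and their protocol speaks of siRNA and a drug. The design text names no drug. Depth of ETV1 knockdown, the hairpin itself and the drug of the label therefore cannot be told apart. No replicate culture of a line and hairpin has a column of its own, so p-values measure only the spread between the 2 lines. In bulk RNA, fewer cells of a type and less RNA per cell cannot be told apart either.

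ETV1 belongs, with ETV4 and ETV5, to the PEA3 group of ETS transcription factors, which bind DNA at a core of GGAA and act downstream of the RAF-MEK-ERK kinase cascade. Many melanomas carry an activated form of BRAF at the head of that cascade, and ERK activity both stabilises ETV1 protein and drives genes of cell division. A short hairpin RNA is cut in the cell to a small duplex, and 1 strand of it guides a silencing complex to its target. Like a microRNA, such a guide can also lower other messengers through short matches between its seed, near its 5′ end, and their 3′ untranslated regions (3′ UTRs). Hairpins with different sequences against the same gene share the intended target and differ in these short matches.

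Levels are in FPKM (fragments counted per kilobase of transcript, scaled to the library), and differences are ETV1-sh2 minus ETV1-sh1 on the log2(FPKM + 1) scale, which understates the change of low genes. Absolute depth is unknown. Judged by the steps between low values, the ETV1-sh2 library was 1.47 times as deep as the ETV1-sh1 library in A375 and 0.9 times as deep in Colo800, the commonest ratio, held by 8.35% of 2024 and 12% of 1702 low genes. The genes tested were the 11159 of 17468 with a mean of at least 1 FPKM over the 4 libraries. LRRC46 and PDYN lay just inside this limit, with means of 1.00, and HMX3 and EDNRA just outside, with means of 0.998. The median difference of all genes tested was 0.07 in A375 and 0.03 in Colo800. SOX10, a transcription factor of the melanocyte lineage, was at 353 to 712 FPKM in the 6 libraries. In A375 the pigment cell genes DCT, TYR, MLANA and TYRP1 were all below 1 FPKM, whereas in Colo800 DCT was at 70.8 to 125 and TYR at 14.8 to 84.9, with MLANA at 0.51 to 1.85 and TYRP1 at 1.44 to 1.7.

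ETV1 (ENSG00000006468), the targeted gene, was at 34.6 FPKM under ETV1-sh1 and 3.46 under ETV1-sh2 in A375, and at 54.6 and 9.80 in Colo800. The scrambled libraries stood at 82.8 and 180 FPKM, so ETV1-sh1 lay between scrambled and ETV1-sh2 in both lines. Both ETV1-sh2 values were below both ETV1-sh1 values. The log2 difference was -2.68 (SE 0.244, limma adjusted p = 0.0111), with -3.0 in A375 and -2.36 in Colo800. ETV4 did not pass the threshold. It went from 114 to 40.8 FPKM (A375) and from 74.5 to 64.5 (Colo800) (log2 difference -0.83, SE 0.314, adjusted p = 0.142). ETV5 went the other way in both lines without passing the threshold, from 24.5 to 55.7 FPKM and from 60.7 to 93.4 (log2 difference 0.88, SE 0.226, adjusted p = 0.0591). The scrambled level of ETV5 was 70.3 and 186 FPKM, above both hairpins in each line.

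With limma and the cell line as a block, 546 genes were lower with ETV1-sh2 (4.89% of those tested) and 499 were higher (4.47%) at an adjusted p under 0.05. All of them had the same sign in both lines. The lines are the replicates of the fit, so this agreement follows largely from the test. Their median log2 difference was -1.32 for the lower genes and 1.23 for the higher ones, and the smallest size that passed was 0.85. At least 2-fold in both lines on this scale were 339 genes lower and 301 higher, while 9 genes were at least 2-fold lower in A375 and higher in Colo800, and 5 the reverse. The fit has 1 residual degree of freedom per gene and borrows the rest of its error from the other genes. No gene passed with no filter on low values, or in a fit over 6 libraries less either ETV1-sh1 library (unadjusted p under 0.05 for 1427 lower and 1617 higher genes with no filter, 1284 and 1292 without the A375 ETV1-sh1 library, and 1314 and 1555 without the Colo800 one).

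**Figure D1:**
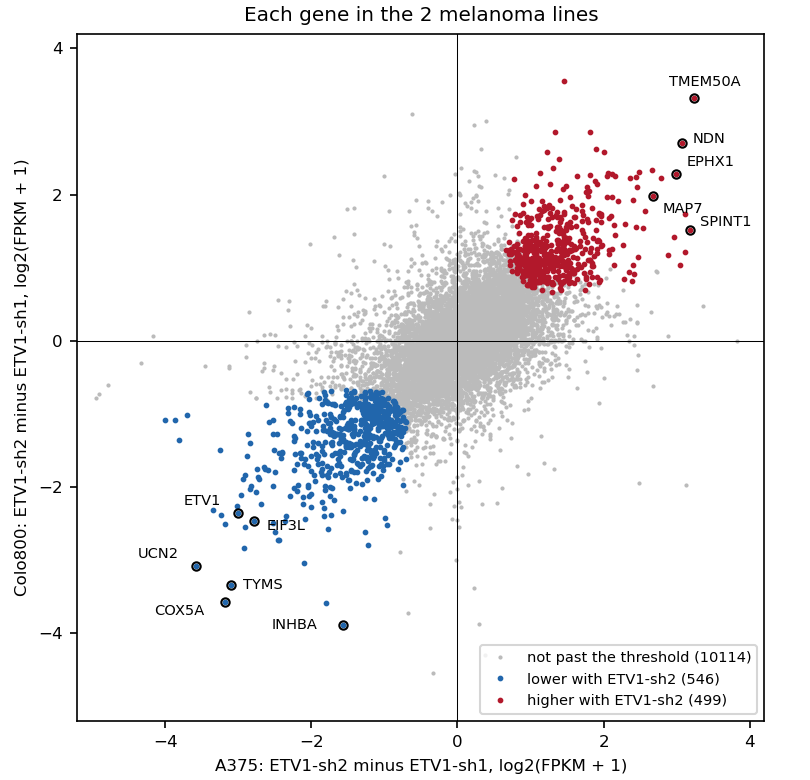
Difference between the hairpins for each of the 11159 genes, in A375 (horizontal) and Colo800 (vertical), both as ETV1-sh2 minus ETV1-sh1 in log2(FPKM + 1), with 1 point per gene and circles around named genes. The 546 lower genes (blue) and 499 higher genes (red) lie in the quadrants where both lines have the same sign, which follows largely from the test.

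The lower genes with the largest differences included enzymes, secreted ligands and proteins of chromosome structure. TYMS, thymidylate synthase, which makes the thymine nucleotide for DNA, was at 27.9 FPKM under ETV1-sh1 and 2.36 under ETV1-sh2 in A375, and at 44.8 and 3.53 in Colo800 (log2 difference -3.22, SE 0.222, adjusted p = 0.00833). COX5A, a subunit of cytochrome c oxidase, was at 71.5 and 7.0 FPKM in A375 and at 108 and 8.06 in Colo800 (log2 difference -3.38, SE 0.22). UCN2, the secreted peptide urocortin 2, was at 69.6 and 4.92 FPKM and at 201 and 22.9 (log2 difference -3.33, SE 0.225). In these 3 genes, picked for their large differences, each ETV1-sh2 library lay below both ETV1-sh1 libraries. The share of all genes without overlap between the hairpins was not counted. SMC4, the condensin ATPase that compacts mitotic chromosomes, was at 77.1 and 9.41 FPKM in A375 and at 190 and 31.6 in Colo800 (log2 difference -2.73). INHBA, the subunit of activin A, was at 215 and 71.5 FPKM and at 270 and 17.2 (log2 difference -2.73, SE 0.493), so its gap was wider in Colo800. EIF3L, a subunit of the translation initiation factor eIF3, was at 524 and 75.3 FPKM and at 419 and 74.9 (log2 difference -2.63). PFKFB4, which sets the level of the glycolytic activator fructose 2,6-bisphosphate, was at 150 and 17.5 FPKM and at 140 and 28.5 (log2 difference -2.64). The other genes of this group were SLAMF9 (log2 difference -2.88), the endothelial proteoglycan ESM1 (-2.84), the actin-binding protein CAP2 (-2.83), PRR9 (-2.81), the interleukin 6 receptor IL6R (-2.69) and VAT1L (-2.59). VAT1L rests mostly on A375, since in Colo800 it was at 1.57 FPKM under ETV1-sh1 and listed at 0 under ETV1-sh2. PRR9, at 0.0802 FPKM (A375) and 1.19 (Colo800) under ETV1-sh2, passed the filter through its ETV1-sh1 values, 9.2 and 10.4.

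On the higher side, TMEM50A, a small membrane protein, was at 11.8 FPKM under ETV1-sh1 and 119 under ETV1-sh2 in A375, and at 13.1 and 139 in Colo800 (log2 difference 3.27, SE 0.203, adjusted p = 0.00833). NDN, the imprinted growth suppressor necdin, was at 1.11 and 16.8 FPKM and at 2.09 and 19.0 (log2 difference 2.89, SE 0.244). EPHX1, microsomal epoxide hydrolase, was at 16.9 and 141 FPKM and at 23.6 and 119 (log2 difference 2.64, SE 0.244). The 2 hairpins did not overlap in any of these genes, which were picked for their large differences. As on the lower side, the share of all genes without overlap was not counted. PARK7, the redox-sensitive protein DJ-1, was at 61.0 and 336 FPKM in A375 and at 76.2 and 364 in Colo800 (log2 difference 2.34). CTSK, the collagen-degrading protease cathepsin K, was at 11.5 and 107 FPKM and at 26.7 and 90.9 (log2 difference 2.42). IRF5, an interferon regulatory factor, was at 0.871 and 9.51 FPKM and at 2.15 and 14.7 (log2 difference 2.4). The group further held the transcription factor CEBPD (2.50), LIMCH1 (2.51), the ubiquitin ligase subunit FBXO2 (2.50), the epithelial protease inhibitor SPINT1 (2.34), the collagen receptor integrin ITGA2 (2.33), the microtubule protein MAP7 (2.33), glutaminyl cyclase QPCT (2.29) and C12orf75 (2.29). LIMCH1 differed by 1.46 in A375 and 3.56 in Colo800, the widest gap between lines among these 14.

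Short sequences in the 3′ UTRs were unevenly shared between the lower and the higher genes. All 16384 heptamers were ranked by how low or high the difference ran in genes whose longest annotated 3′ UTR holds the heptamer on the transcript strand, after the trend with UTR length was taken out (GENCODE release 29, 10954 genes with a UTR, RNA written with T). ATGAACA ranked 1 on the lower side in A375 and again in Colo800, which shares no library with A375. On the higher side CTAAACA ranked 1 in A375 and 2 in Colo800, and TCTAAAC ranked 2 and 1. These 3 were chosen on these data, so their shares are a description with no test. The sites below, with the heptamer in capitals and 10 bases on each side, come from genes with large differences and show the matches in their setting, the first 5 from lower genes and the last 5 from higher genes.
TYMS: tgctgaggttATGAACAaagtgaggag
SMC4: cccaaatactATGAACAtatttttgta
ANXA2: agccaaagaaATGAACAttccaaggag
CDK2: taaaagaaggATGAACAattatattta
HDDC2: agtgccatggATGAACActggaggtgg
TMEM50A: acgagaacacCTAAACAacaaccaaaa
PARK7: tgtgttcgctCTAAACAaaacagtggt
NDN: gcacactttaCTAAACAcatatacaac
SDHD: cacagtataaCTAAACAtgatatatca
SNRPC: actgagttttCTAAACAgcataaggaa

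The transcripts of ETV1 hold both kinds of site, in different regions, and are shown because they are the hairpins' intended target. In transcript ETV1-201 the lower-side heptamer lies once, in the coding sequence at bases 988 to 994 counted from the transcript's start, and it is in all 9 annotated coding transcripts examined. CTAAACA lies in the 3′ UTR at bases 1915 to 1921 and 3429 to 3435, each time after a T that completes TCTAAAC, and 8 of the 9 transcripts hold it at least once. The sequences of the 2 hairpins are not in the sources used here, so whether these are the places the hairpins were designed against, and whether the heptamers pair with their seeds, was not tested.
ETV1 coding site: gacccagtgtATGAACAcaacaccatg
ETV1 3′ UTR site at 1915: tgggagtaatCTAAACAtttattctgt
ETV1 3′ UTR site at 3429: aaaaaaaattCTAAACAcaaagtcaaa

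ATGAACA was in the 3′ UTR of 14.5% of all genes, of 30.4% of the lower genes (163 of 536) and of 7.91% of the higher genes (39 of 493). CTAAACA or TCTAAAC was in 16.9% of all genes, in 41.4% of the higher genes (204 of 493) and in 11.9% of the lower genes (64 of 536). Long UTRs hold more of any heptamer: the median UTR was 3250 bases with ATGAACA and 1180 without. The order was the same in each of 3 length classes with nearly equal numbers of genes. In UTRs of 811 to 2188 bases ATGAACA was in 30.6% of the lower genes, 10.5% of all and 3.68% of the higher genes, and the higher-side heptamers were in 45.8% of the higher genes, 12.9% of all and 4.44% of the lower genes. The share of genes that were higher went from 3.18% with no match to CTAAACA or TCTAAAC to 9.12% with 1 match, 13.8% with 2 and 14.3% with 3 or more, where an overlapping pair counts as 2 matches. The share that were lower went from 3.98% with no ATGAACA to 10.0%, 12% and 10.7%. Number of matches and UTR length go together, and their parts were not separated here.

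**Figure D2:**
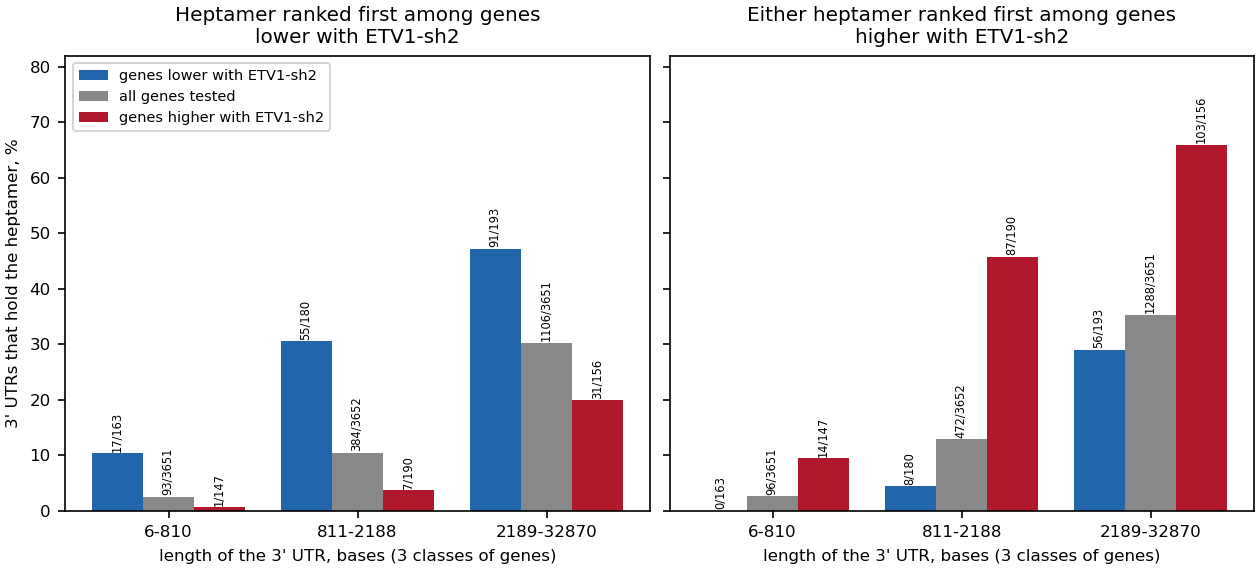
Percent of 3′ UTRs that hold the heptamer ranked first on the lower side (left) and either of the heptamers ranked first on the higher side (right), by class of UTR length in bases, with counts over the bars. In every class the lower genes (blue) have the largest share of the lower-side heptamer and the higher genes (red) the largest share of the higher-side ones.

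Each hairpin was also set beside the scrambled libraries for the same heptamers, with values given side by side because the comparisons share libraries. With ETV1-sh1 minus scrambled, CTAAACA and TCTAAAC held ranks 1 and 2 on the low side in A375 and ranks 2 and 1 in Colo800, and ATGAACA ranked 910 and 1565. With ETV1-sh2 minus scrambled, ATGAACA ranked 1 on the low side in both lines, and CTAAACA ranked 4302 in A375 and 3053 in Colo800. Of the 8072 genes with a UTR that holds none of the 3 heptamers, 339 were lower and 277 higher in the fit over all genes. Fitted alone, with an error estimate and adjustment of their own, 278 were lower (3.44%) and 211 higher (2.61%). The 4.89% and 4.47% of all genes tested come from the full fit, so these shares are not directly comparable. In the 3322 genes that also lack every 6-base part of them, none passed when fitted alone (smallest limma adjusted p 0.0825, unadjusted p under 0.05 for 335 lower and 367 higher), a set far smaller than the full one. In the fit over all genes 232 of these 3322 had passed.

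The scrambled level sorted genes that differed between the hairpins into kinds, and the genes described are mainly those with the largest differences, at most 5 per direction and kind, and not the whole kind. In the first kind the scrambled libraries lay within 0.5 (log2) of ETV1-sh2 in both lines and ETV1-sh1 stood apart. PARK7 was at 311 FPKM under the scrambled hairpin, 61.0 under ETV1-sh1 and 336 under ETV1-sh2 in A375, and at 350, 76.2 and 364 in Colo800. RAB10, a GTPase of membrane traffic, was at 162, 41.3 and 188 FPKM in A375 and at 277, 77.5 and 374 in Colo800. SNRPC, a protein of the U1 splicing particle, was at 162, 39.6 and 176 FPKM and at 327, 85.8 and 421. TMEM50A and C12orf75 had the same order, so higher genes of this kind were low with ETV1-sh1 alone. All 5 hold CTAAACA or TCTAAAC in the 3′ UTR, as do 41.4% of all higher genes, whereas SEL1L and EIF4G3, of the same kind with smaller differences, hold neither. Lower genes of this kind were high with ETV1-sh1 alone. SERPIND1, the thrombin inhibitor heparin cofactor II, was at 5.38, 42.4 and 4.57 FPKM in A375 and at 12.9, 48.6 and 10.5 in Colo800. MDGA1 (log2 difference -1.62), SPOCD1 (-1.58), ZBTB47 (-1.52) and C11orf95 (-1.51) shared that order.

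In the second kind the scrambled libraries lay within 0.5 of ETV1-sh1 and ETV1-sh2 stood apart. SMC4 was at 70.1 FPKM under the scrambled hairpin in A375, beside 77.1 and 9.41 under ETV1-sh1 and ETV1-sh2, and at 211 in Colo800, beside 190 and 31.6. YAP1, the coactivator of the Hippo pathway, was at 38.2, 52.8 and 7.68 FPKM and at 25.5, 26.1 and 7.0, and its 3′ UTR holds ATGAACA 3 times. MBD2, a reader of methylated DNA, was at 9.91, 12.4 and 1.74 FPKM and at 17.2, 16.2 and 2.97. PFKFB4 and the mitochondrial protein GBAS (log2 difference -2.26) had this order too. Of these 5 lower genes 4, all but PFKFB4, hold ATGAACA in the 3′ UTR, as do 30.4% of all lower genes. MBD2 also holds 2 higher-side matches. FADS1, SNRPE, EIF3B and BIRC2 are of the same kind and hold none of the heptamers. The largest differences among higher genes of this kind were those of S100A2, at 31.5, 29.1 and 175 FPKM in A375 and 15.7, 16.4 and 49.7 in Colo800, with IRF5, PRRG2 (2.19), BEX2 (1.94) and the ubiquitin ligase MARCH8 (1.94). S100A2 is a calcium-binding protein of epithelia. HIST1H2BD and the interferon genes ISG15, IFITM1 and IRF7 had this order as well. PRRG2 was at 0.43 FPKM (A375) and 0.222 (Colo800) under ETV1-sh1, so it passed the filter through its ETV1-sh2 values, 10.2 and 2.26.

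The last kind was graded with the level of ETV1, ETV1-sh1 standing between scrambled and ETV1-sh2 by at least 0.5 on each side in both lines. Besides ETV1 itself it included TYMS, at 46.8, 27.9 and 2.36 FPKM in A375 and 93.6, 44.8 and 3.53 in Colo800. HDDC2, a nucleotide phosphohydrolase, was at 26.5, 15.8 and 2.0 FPKM and at 33.3, 18.3 and 2.16. ANLN, the anillin scaffold of the cleavage furrow, was at 92.1, 52.6 and 6.19 FPKM and at 576, 396 and 110. ENC1 was the last of the 5 largest (log2 difference -2.54, -4.0 in A375 and -1.09 in Colo800), and PLAT, MCM10 and ITGB3 were graded too. TYMS, HDDC2, ENC1 and ANLN each hold 1 ATGAACA in the 3′ UTR, whereas PLAT and MCM10 hold none. On the higher side 3 genes were graded: the pannexin channel PANX2, at 1.03, 2.2 and 14.6 FPKM in A375 and 11.4, 29.2 and 53.2 in Colo800, FNDC4 (log2 difference 1.39) and the Polycomb protein CBX7 (1.21). None of these 3 holds any of the heptamers.

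**Figure D3:**
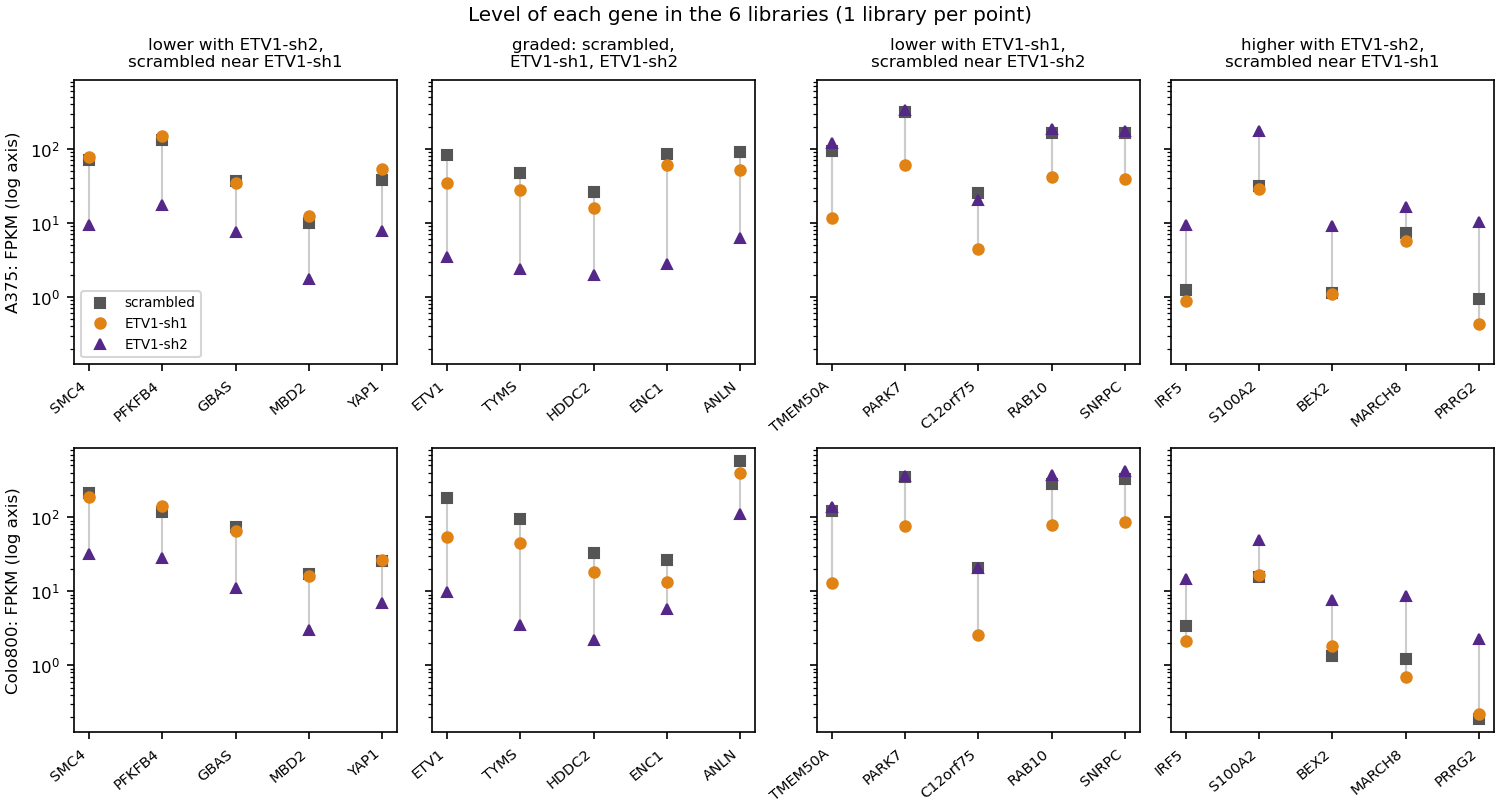
FPKM on a log axis of 20 genes in the 6 libraries, 1 library per point, A375 above and Colo800 below, with the scrambled hairpin as grey squares, ETV1-sh1 as orange circles and ETV1-sh2 as purple triangles. In the left panels ETV1-sh2 lies apart below, in the next the 3 hairpins are in steps, in those after it ETV1-sh1 lies apart below and in the right panels ETV1-sh2 lies apart above.

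Genes of DNA replication and of cell division were lower with ETV1-sh2. Each list count from here on stands beside 4.89% lower and 4.47% higher over all genes tested. Of 48 replication genes tested 16 were lower and none higher, with a median of -0.79 beside 0.05 over all genes tested (A375 -0.67, Colo800 -0.84). MCM2, a subunit of the replicative helicase, was at 23.8 FPKM under ETV1-sh1 and 8.02 under ETV1-sh2 in A375, and at 57.6 and 16 in Colo800 (log2 difference -1.62, SE 0.217, adjusted p = 0.014). MCM10, which helps to start the helicase, was at 3.05 and 0.286 FPKM and at 14.8 and 3.87 (log2 difference -1.68, SE 0.25). CCNE1, the cyclin E1 of S-phase entry, was at 13.1 and 4.60 FPKM and at 11.3 and 2.74 (log2 difference -1.53, SE 0.241). Among the rest of the 16 were the loading factor CDC6 (-1.49), the helicase cofactor CDC45 (-1.48), the polymerase alpha subunit POLA2 (-1.57), the clamp loader RFC3 (-1.35) and the transcription factor E2F1 (-1.36). Of the 42 members with a UTR that holds none of the heptamers, 13 were lower (median -0.77).

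Of 43 mitosis and spindle genes 7 were lower and none higher, with a median of -0.87. The lines differed in size, at -1.43 in A375 and -0.32 in Colo800, though 41 of 43 members were negative in the fit. AURKB, the Aurora B kinase of the spindle checkpoint, was at 11.1 and 2.4 FPKM in A375 and at 43.1 and 18.0 in Colo800 (log2 difference -1.53, SE 0.246, adjusted p = 0.0198). BIRC5, survivin, its partner on chromosomes, was at 7.87 and 1.01 FPKM and at 72.6 and 23.2 (log2 difference -1.87, SE 0.238). CDC20, which activates the anaphase-promoting complex, was at 17.9 and 4.32 FPKM and at 85.2 and 42.0 (log2 difference -1.42, SE 0.262). ANLN, UBE2C (-1.5), CDK1 (-1.65) and KIF4A (-1.48) were the others. Against scrambled, the mitosis median was -0.71 under ETV1-sh1 and -2.29 under ETV1-sh2 in A375, whereas Colo800 had -0.39 and -0.80, so the list was low with both hairpins and lower with ETV1-sh2. Of 28 genes of homologous recombination and the Fanconi pathway 4 were lower, among them EXO1 (-1.33), CHEK2 (-1.08) and FANCI (-1.04). CDK2, the kinase of S phase, was at 60.7 and 11 FPKM in A375 and at 148 and 25.9 in Colo800 (log2 difference -2.41) and holds ATGAACA in the 3′ UTR.

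Few genes of protein synthesis passed the test. Of 69 cytosolic ribosomal protein genes 66 had a negative difference and 5 passed as lower, beside 4.89% of all genes tested, with a median of -0.55 beside 0.05 over all genes. RPL5, a protein of the large subunit, was at 267 FPKM under ETV1-sh1 and 111 under ETV1-sh2 in A375, and at 437 and 171 in Colo800 (log2 difference -1.30, SE 0.196, adjusted p = 0.0175). RPS13 (-1.65), RPS24 (-1.08), RPS12 (-0.94) and RPS27A (-0.85) were the other 4. The list took 12.1% of the FPKM sum with ETV1-sh1 and 9.29% under ETV1-sh2 in A375, whereas Colo800 had 6.73% and 4.46%. Against scrambled its median was 0.10 and 0.31 under ETV1-sh1 and -0.31 and -0.41 under ETV1-sh2, in A375 and Colo800, so the scrambled level lay between the hairpins. Ribosomal protein genes have many near-identical copies, and how the authors' counting split reads among them is not given. MYC, the growth-promoting transcription factor, was at 6.38 and 1.76 FPKM in A375 and at 38.4 and 12.4 in Colo800 (log2 difference -1.49, SE 0.222). It and RRP12 (-1.06) were the 2 of 35 ribosome biogenesis and MYC target genes that passed, with a median of -0.48. Of 34 translation factors 4 were lower, among them EIF3L and EIF3B (-1.48), and 2 were higher, EIF4A2 (1.00) and EIF4G3 (0.98).

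**Figure D4:**
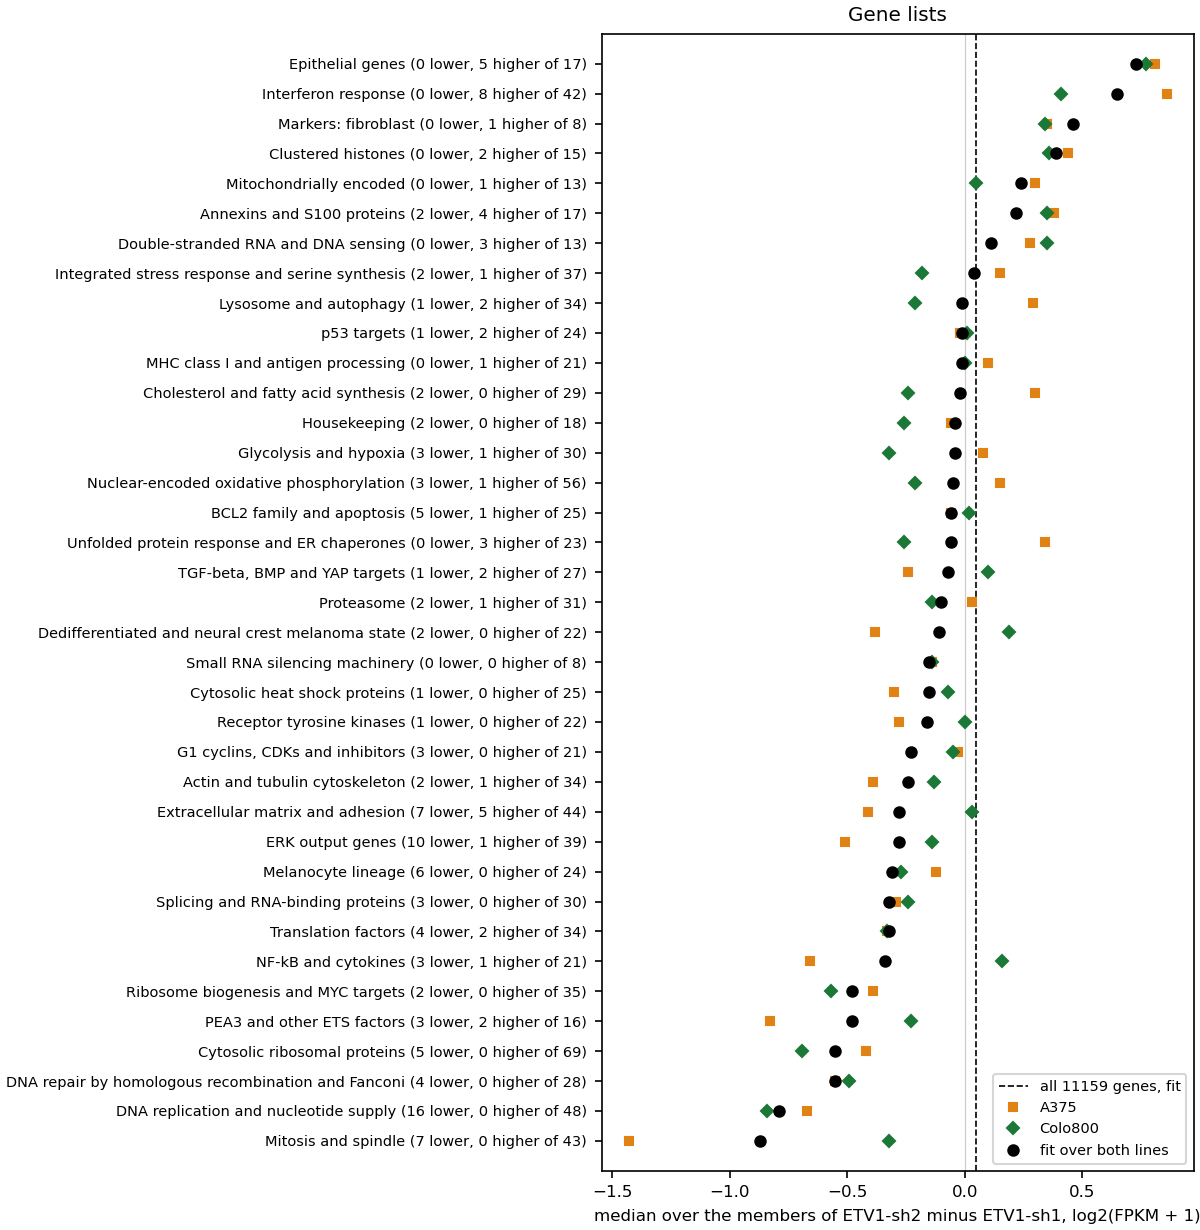
Median over list members of ETV1-sh2 minus ETV1-sh1 in log2(FPKM + 1), for A375 (orange squares), Colo800 (green diamonds) and the fit over both lines (black circles), for lists with at least 8 tested members, with the counts of members that passed beside each name. Mitosis, DNA replication and ribosomal protein lists lie left of the median of all genes (dashed, 0.05) and the epithelial and interferon lists lie right of it.

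The ERK output list holds genes that rise with RAF-MEK-ERK signalling, feedback inhibitors among them. Of 39 tested 10 were lower and 1 higher, beside 4.89% and 4.47% of all genes tested, with a median of -0.28 (A375 -0.51, Colo800 -0.14). SPRY1, a feedback inhibitor of receptor tyrosine kinases, was at 2.59 FPKM under ETV1-sh1 and 0.273 under ETV1-sh2 in A375, and at 26.8 and 6.46 in Colo800 (log2 difference -1.70, SE 0.253, adjusted p = 0.0175). DUSP5, an ERK phosphatase, was at 57.5 and 28.9 FPKM and at 74.7 and 22.4 (log2 difference -1.33, SE 0.246). The phosphatases DUSP4 (-0.94) and DUSP7 (-1.0), the inhibitors SPRY4 (-1.21) and SPRED3 (-1.11), PHLDA2 (-1.04), IER2 (-0.93), MYC and ELK3 were also lower. EGR1, an immediate early transcription factor of the same pathway, went up instead, from 52.1 to 278 FPKM (A375) and from 149 to 265 (Colo800) (log2 difference 1.61, SE 0.363, adjusted p = 0.0438), and its 3′ UTR holds 1 ATGAACA. Among the lower members SPRY1, DUSP4 and SPRED3 each hold 1 ATGAACA too, and the other 7 hold none of the heptamers. The label gives a MEK inhibitor to the ETV1-sh2 libraries and none to the ETV1-sh1 libraries, and its part in these values was not tested. Of 16 ETS factors, ELK3 was at 54.6 and 11 FPKM in A375 and at 33.4 and 12.7 in Colo800 (log2 difference -1.77). ETV3 was lower (-1.12, with 3 ATGAACA in its 3′ UTR). ELF1 (1.42) and GABPA (1.20) were higher, with 3 and 1 higher-side matches.

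Of 24 melanocyte lineage genes 6 were lower and none higher (median -0.31, A375 -0.12, Colo800 -0.27), beside 4.89% and 4.47% of all genes tested. In the fit 8 of the 24 had a positive difference. Besides CDK2, which the melanocyte factor MITF is known to drive, they were MLPH (-1.68) and SLC45A2 (-1.5), proteins of the pigment granule, the survival gene BCL2A1 (-1.71), TFAP2A (-1.01) and the endothelin receptor EDNRB (-0.96). MLPH was at 11.6 FPKM under ETV1-sh1 and 2.50 under ETV1-sh2 in A375, and at 55.0 and 18.7 in Colo800. MITF itself was at 8.61 and 10.5 FPKM in A375 and at 91.5 and 38.4 in Colo800. SOX10 was at 353 and 410 FPKM and at 562 and 549. In Colo800 DCT was at 70.8 and 82.1 FPKM and TYR at 84.9 and 14.8. Of 22 genes of the dedifferentiated, neural crest-like state, the receptor NGFR (-1.13) and the matrix protein TNC (-1.38) were lower. The receptor tyrosine kinase AXL of that state was at 64.4 and 97.4 FPKM in A375 and at 6.02 and 22.0 in Colo800 (log2 difference 1.15, adjusted p = 0.0609), which missed the threshold. MET, the receptor of hepatocyte growth factor, was at 30.9 and 7.84 FPKM and at 31.0 and 9.03 (log2 difference -1.76, SE 0.214, adjusted p = 0.0116) and was the 1 of 22 receptor tyrosine kinases that passed. It holds an ATGAACA.

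Interferon response genes were higher with ETV1-sh2. Of 42 tested 8 were higher and none lower, 37 were positive and the median was 0.65 (A375 0.86, Colo800 0.41). Over all genes tested 4.47% were higher and 4.89% lower. IFIT3, an antiviral RNA-binding protein, was at 9.75 FPKM under ETV1-sh1 and 24.4 under ETV1-sh2 in A375, and at 6.06 and 19.8 in Colo800 (log2 difference 1.40, SE 0.223, adjusted p = 0.0197). SAMD9L, a restriction factor, was at 15.4 and 33.8 FPKM and at 4.72 and 17.6 (log2 difference 1.39, SE 0.244). IFIT1, of the same family as IFIT3, was at 1.46 and 20.2 FPKM and at 0.944 and 3.52 (log2 difference 2.16, SE 0.444), a gap that was wider in A375. ISG15 (1.66), IFITM1 (1.59), MX1 (1.39), IRF7 (1.32) and SAMD9 (1.21) were the others, and SAMD9 holds 1 ATGAACA. Against scrambled, the list's median was 0.34 under ETV1-sh1 and 1.26 under ETV1-sh2 in A375, whereas Colo800 had -0.01 and 0.42. Among 13 sensors of double-stranded RNA and DNA and their relays, TMEM173, the adaptor STING, was at 21.3 and 77.0 FPKM in A375 and at 24.5 and 58.6 in Colo800 (log2 difference 1.52, SE 0.232), and the RNA sensor TLR3 (1.13) and the transcription factor IRF3 (1.01) were higher too. Without the genes that hold a heptamer, 7 of 36 interferon genes were higher, with a median of 0.65 again.

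Some genes of epithelial cells were higher with ETV1-sh2. Of 39 on the list 17 were tested, the rest having a mean below 1 FPKM, and 5 of the 17 were higher and none lower (median 0.73). The shares over all genes tested were 4.47% higher and 4.89% lower. The filter uses the same 4 libraries, so a low gene can enter through its ETV1-sh2 values. With no filter, 37 members had a median of 0.24, beside 0.02 over all genes, and none passed. MAP7 was at 1.52 FPKM under ETV1-sh1 and 15.1 under ETV1-sh2 in A375, and at 2.08 and 11.2 in Colo800 (log2 difference 2.33, SE 0.271, adjusted p = 0.0111). MUC1, a cell surface mucin, was at 17.0 and 44.6 FPKM and at 2.11 and 21.6 (log2 difference 2.10, SE 0.364). SPINT1 was at 3.06 and 35.8 FPKM and at 1.91 and 7.28, and JUP (1.13) and LLGL2 (1.31), proteins of junctions and cell polarity, were the other 2. The summed level of all 39 genes went from 99.4 to 224 FPKM (A375) and from 96.2 to 189 (Colo800), and 2 to 9 of them were listed at 0 in a library. Keratinocyte markers summed to 14.5 and 26.9 FPKM in A375 and to 7.66 and 8.71 in Colo800, and none of the 3 tested passed. Fibroblast markers summed to 20.3 and 39.1 FPKM and to 59.9 and 87.9, and 1 of 8 passed, COL1A1, from 3.33 to 9.61 FPKM and from 3.08 to 12.1 (log2 difference 1.49, SE 0.244). Leukocyte markers summed to 102 and 330 FPKM in A375 and to 141 and 78.5 in Colo800, with none of 3 tested past the threshold. Most of that sum was CD68, a lysosomal membrane protein, at 79.2 and 306 FPKM and at 139 and 76.6. Endothelial markers summed to 13 and 4.3 FPKM and to 2.88 and 1.58, and TIE1 was lower (-1.15, adjusted p = 0.0499). The part of other cell types in these values was not tested.

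Matrix and adhesion genes went both ways, with 7 lower and 5 higher of 44 (median -0.28), beside 4.89% and 4.47% of all genes tested. PLAT, the tissue plasminogen activator, was at 95.6 FPKM under ETV1-sh1 and 14.4 under ETV1-sh2 in A375, and at 445 and 133 in Colo800 (log2 difference -2.19, SE 0.266, adjusted p = 0.0116). The collagenase MMP1, abundant in Colo800, was at 10.7 and 4.29 FPKM and at 8583 and 3017 (log2 difference -1.33, SE 0.208). The integrins ITGB1 (-1.07) and ITGB3 (-0.99), COL5A1 (-1.48), SPARC (-1.05) and TNC made up the lower members. The collagen receptor ITGA2 was at 8.75 and 33.3 FPKM in A375 and at 3.23 and 29.4 in Colo800, and LOXL4, a collagen cross-linking enzyme, at 20.9 and 59.0 and at 46.0 and 197 (log2 difference 1.76). LOXL4 was far higher in the scrambled libraries, at 128 and 378 FPKM, so it was low with both hairpins and lower with ETV1-sh1. ANXA2, a membrane-binding annexin, was at 222 and 40.2 FPKM in A375 and at 737 and 110 in Colo800 (log2 difference -2.58), and its partner S100A10, at 2050 and 665 FPKM and at 1021 and 387 (log2 difference -1.51). ANXA2 holds the lower-side heptamer and S100A10 holds none. Of the matrix genes named, ITGA2 holds 2 higher-side matches and LOXL4 holds 1, as does the lower gene COL5A1, and ITGB1 holds 1 ATGAACA. ANXA4 (1.22) and ANXA5 (1.02) of the same family were higher.

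Among regulators of apoptosis, 5 of 25 were lower and 1 higher, beside 4.89% and 4.47% of all genes tested. APAF1, the core of the apoptosome, was at 12.5 FPKM under ETV1-sh1 and 2.92 under ETV1-sh2 in A375, and at 11.2 and 2.72 in Colo800 (log2 difference -1.75, SE 0.232, adjusted p = 0.014). The ubiquitin ligase BIRC2 (-1.51), the BH3-only gene PMAIP1 (-1.29) and BCL2A1 were also lower, and the BH3-only gene BMF was higher, at 1.65 and 7.13 FPKM and at 4.57 and 12.4 (log2 difference 1.44). APAF1 holds 1 ATGAACA and BMF 2 higher-side matches, whereas the other 4 lower members hold none of the heptamers. In the NF-kB list TNFAIP3, a brake on NF-kB, was at 18.2 and 3.45 FPKM and at 68.5 and 14.8 (log2 difference -2.12, SE 0.211), with IL11 (-1.52) and TRAF1 (-1.29) lower and IL1B (1.05) higher of 21. Of 15 clustered histone genes 2 were higher and none lower: HIST1H2BD, from 31.8 to 111 FPKM (A375) and from 15.9 to 71.5 (Colo800) (log2 difference 1.94), and HIST1H2AC (1.22).

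Lists of metabolism and protein quality had few members past the threshold, and several counts were near the shares over all genes tested (4.89% lower, 4.47% higher). Of 56 nuclear genes of oxidative phosphorylation 3 were lower and 1 higher (median -0.05). The largest were COX5A and SDHD, a membrane anchor of succinate dehydrogenase, which went in opposite directions. SDHD was at 2.4 FPKM under ETV1-sh1 and 17.6 under ETV1-sh2 in A375, and at 3.14 and 16.9 in Colo800 (log2 difference 2.28, SE 0.236, adjusted p = 0.0111), beside 11.9 and 12.1 under the scrambled hairpin. Of 30 glycolysis and hypoxia genes PFKFB4, LDHA (-0.87) and LDHB (-0.89) were lower and the glucose transporter SLC2A1 was higher, at 24.7 and 60.4 FPKM and at 30.3 and 105 (log2 difference 1.5), beside 78.0 and 127 under the scrambled hairpin. In the unfolded protein response list 3 of 23 were higher, the disulfide isomerase PDIA3 (1.70), the chaperone DNAJB9 (1.81) and SEL1L (1.10). PDIA3 was at 49.9 and 173 FPKM in A375 and at 199 and 612 in Colo800, beside scrambled levels of 192 and 882. PDIA3, DNAJB9, SLC2A1 and SDHD each hold a higher-side heptamer, whereas SEL1L holds only ATGAACA, the lower-side one. The desaturases FADS1 (-2.08) and FADS2 (-1.02) were the 2 of 29 lipid synthesis genes that passed. In the remaining lists, 3 of 30 splicing and RNA-binding genes were lower, 2 of 31 proteasome genes were lower and 1 higher, 1 of 24 p53 targets was lower and 2 higher, and 1 of 34 lysosome and autophagy genes was lower and 2 higher. SNRPE, a core protein of the splicing particles, was at 21.6 and 6.42 FPKM in A375 and at 20.2 and 5.05 in Colo800 (log2 difference -1.71). RRM2B, the p53-induced ribonucleotide reductase subunit, was at 47.4 and 140 FPKM and at 5.04 and 22.7 (log2 difference 1.76), and it holds 2 higher-side matches. No tested member of the small RNA silencing machinery passed (0 of 8, limma), and only 8 of the 17 entries on that list were found in the data.

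An ETS binding sequence was counted in promoters, from 250 bases before to 50 after the start of each gene (RefSeq, GRCh38.p14). CCGGAAGT, on either strand, was in 4.95% of all promoters in that table and in 10.1% of those of the 9119 tested genes with a promoter there. It was in 9.32% of the lower genes (41 of 440) and 9.14% of the higher genes (37 of 405). The shares in lower, higher and all tested genes were close to each other, and a match in this window is a description and not a binding site.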

How the data were processed

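RNA sequencing of 6 libraries from A375 and Colo800 was used, 4 of them in the tests. The deposited values are FPKM, which the authors made from hg19 alignments (STAR 2.4) using Cufflinks 2.2.1 with Cuffnorm, per the submitters' processing notes. The annotation, strandedness, scaling method and any filter are not stated in the sources used here. Depth is unknown beyond the ratios given.

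Values were taken as log2(FPKM + 1) in genes with a mean of at least 1 FPKM and fitted in limma 3.58.1 (R 4.3.3) with the cell line as a block and a variance trend (1 residual degree of freedom, 5.59 prior). P-values are two-sided, with Benjamini-Hochberg adjustment over 11159 genes and a threshold of 0.05. The fit was tested on simulated data. Same-numbered libraries come from the same cell line, which pairs them, and their deviations from the hairpin means correlated at 0.858 across genes. The longest 3′ UTR per gene came from GENCODE release 29, matched by Ensembl identifier; the files' build differs, so no genome coordinates are given.

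The comparison and the 40 gene lists (1175 of 1210 entries found) were chosen with earlier results of these data known, so counts over them are descriptions. Named genes were ETV1, ETV4 and ETV5, the 14 largest differences per direction among genes that passed, up to 4 members per list by the moderated statistic, up to 5 per direction in each position of the scrambled level, and up to 5 per direction with the lines opposed by at least 1. Further list members that passed are named after their values were seen. Some list members that passed are not reported here. Alternatives were another pseudocount, filter, scaling, block and variance model, all 6 libraries, each library left out, and, chosen after seeing the data, genes without a heptamer or hexamer.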

Additional observations from a re-analysis of the deposited data

Results flagged for a closer look

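Results were picked out here where the hairpin difference had opposite signs in the 2 lines, at least 1 (log2) in each for a gene and at least 0.2 for a list median. With 1 library per line and hairpin the difference between lines was not tested. Colo800 minus A375, it was 3.35 for AMIGO2, a neuronal adhesion protein, which was at 23.3 FPKM under ETV1-sh1 and 4.98 under ETV1-sh2 in A375, and at 1.05 and 4.14 in Colo800. It was 3.31 for the growth factor FGF1 (7.83 and 2.11 FPKM, then 3.23 and 13.8), 3.23 for SLITRK6 (57.1 and 20.7, then 1.10 and 6.38), 3.11 for the cytokine IL32 (10.7 and 2.64, then 2.30 and 7.84) and 2.87 for the sialomucin PODXL (18.7 and 6.40, then 6.83 and 20.5). In the other order it was -5.10 for the sulfotransferase SULT1C2 (0.140 and 8.93 FPKM, then 3.35 and 0.106), -4.44 for the kinase DCLK1 (0.392 and 6.84, then 3.29 and 0.116), -3.09 for LRRC8C (1.38 and 4.96, then 24.1 and 6.40), -2.85 for the protease CAPN3 (0.728 and 2.91, then 10.6 and 2.64) and -2.43 for the phosphatase DUSP2 (1.88 and 5.33, then 9.26 and 3.18).

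Of the gene lists, the unfolded protein response median was 0.34 in A375 and -0.26 in Colo800 (difference -0.60), the cholesterol and fatty acid synthesis median 0.30 and -0.24 (difference -0.54), and the lysosome and autophagy median 0.29 and -0.21 (difference -0.50).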

How the results depend on the processing

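The 546 lower and 499 higher genes moved by over 1.5 times under several settings. No gene passed, lower or higher (0 and 0), with no filter on low values (smallest adjusted p 0.155) or with no replicate block (smallest adjusted p 0.9, unadjusted p under 0.05 for 294 lower and 290 higher). All 6 libraries in 1 fit gave 747 lower and 750 higher. The genes without a heptamer gave 278 and 211, and those without a hexamer 0 and 0, both among fewer genes tested. With each library left out in turn from the fit over 6, the lower count ranged from 0 to 901 and the higher from 0 to 882. Both values of 0 came without an ETV1-sh1 library, and without ETV1-sh2 in Colo800 the counts were 901 and 882. A hairpin left with 1 library is assumed to vary like the others. ETV1 itself was at -2.68 with no filter (adjusted p = 0.155) and with no block (adjusted p = 0.9), and ranged from -2.95 to -2.41 with a library left out (adjusted p from 0.000281 to 0.0926). Pseudocounts of 0.1 and 5, a minimum mean of 5, no variance trend and both rescalings left each count within 1.5 times, from 378 to 661 lower and from 385 to 580 higher. The 1045 genes kept their sign under every setting in which they were tested. All of them had the same sign in both lines, and several settings leave the estimate unchanged, so this follows largely from their selection. Rescaling moved the median of all genes from 0.05 to 0.01 and to 0.11. Of 39 list medians, 9 moved with median of ratios scaling and 11 with the other rescaling. A median counted as moved beyond the standard deviation of its values in A375 and Colo800. From 10 to 15 of the 39 moved with an ETV1-sh1 or ETV1-sh2 library left out, and 0 without a scrambled library. Of 159 genes tested and named, 145 lost the threshold with no filter, with no block and without either ETV1-sh1 library. The sign turned for DCLK1 with a pseudocount of 0.1 (-0.08), for SLITRK6 with 5 (-0.19) and for PODXL with median of ratios scaling (-0.03). With a library left out, the genes with opposed lines ranged from -2.02 to 1.33 (AMIGO2), -1.74 to 1.25 (CAPN3), -1.51 to 2.07 (DCLK1), -1.13 to 0.97 (DUSP2), -1.67 to 1.97 (FGF1), -1.93 to 1.66 (IL32), -1.81 to 1.37 (LRRC8C), -1.07 to 1.12 (PODXL), -1.26 to 1.66 (SLITRK6) and -1.50 to 2.64 (SULT1C2). Apart from the settings that test fewer genes, the cause of these shifts was not tested. Unknown depth limits what can be said of genes near 1 FPKM.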

Other observations

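Mitochondrially encoded genes took 3.83% of the FPKM sum with ETV1-sh1 and 5.03% under ETV1-sh2 in A375, whereas Colo800 had 7.82% and 9.21%. MT-ND6, the complex I subunit on the light strand, was at 971 and 1700 FPKM in A375 and at 933 and 2104 in Colo800 (log2 difference 0.99, SE 0.21, adjusted p = 0.0372), and it alone of 13 passed. It overlaps other mitochondrial transcripts on the opposite strand, and without a stated strand setting their reads cannot be told apart. MT-ND1, on the heavy strand, was at 943 and 652 FPKM and at 2072 and 1400 (log2 difference -0.55, adjusted p = 0.127).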
